A study of Homo sapiens with 4 samples.

Results

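The AP-1 and immediate early factors are a set of 10 genes for transcription factors: the JUN genes JUN, JUNB and JUND, the FOS genes FOS, FOSB, FOSL1 and FOSL2, the related factors ATF3 and MAFF, and the zinc finger factor EGR1. They were chosen by gene symbol, and each of the 10 was found among the 55764 gene names of the deposited table. Bulk RNA-seq compared TE5, an established cell line from a human oesophageal squamous cell carcinoma, with and without added ETS1. There were 2 libraries of cells that stably carried a CMV-promoter vector encoding human ETS1 and 2 of cells that carried the vector backbone alone, a control whose genotype the labels give as WT. Both vectors were delivered by lentivirus. Whether the cells were 1 clone or a pool, and whether libraries of a group came from separate cultures, is not given in the sources used here, so p-values measure only the spread between these libraries. In bulk RNA, a change in the number of cells that express a gene and a change in its RNA per cell cannot be told apart.

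AP-1 is a dimer of basic leucine zipper (bZIP) proteins. JUN proteins pair with each other or with a FOS protein, FOS proteins need a JUN partner, and the dimer binds the site TGANTCA. Many of these genes belong to the immediate early class, which growth factors and stress switch on within minutes without new protein synthesis, in part through serum response factor (SRF) bound to CArG boxes together with ETS-family partners. ETS1 itself is known to bind beside AP-1 at composite sites, for example in genes of matrix proteases.

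The control libraries held 40356717 and 44119620 reads and the ETS1 libraries 57269989 and 56502859 reads, as recovered from the deposited values for the genes of the authors' comparison table. The unit throughout is FPKM, fragments scaled by gene length and by library size. ETS1 stood at 0.491 and 0.509 FPKM in the controls (142 and 161 reads) and at 1.84 and 1.87 FPKM in the ETS1 libraries (756 reads in each), so the labels matched the overexpressed gene. Squamous markers were largely absent: 8 of 9 were under 1 FPKM in every library, KRT4 was listed at 0 in all 4, and only SOX2 exceeded that level (2.72 to 3.82 FPKM). The 7 simple epithelial markers summed to 16.8 and 16.9 FPKM in the controls and 17.2 and 17.3 FPKM with ETS1, but single markers differed between groups in opposite directions. KRT8 (3.91 and 3.87 against 6.48 and 6.59 FPKM) and CDH1 (0.571 and 0.567 against 1.08 and 0.916 FPKM) had higher values with ETS1. KRT18 (10.2 and 10.5 against 8.35 and 8.29 FPKM) and CLDN4 (0.706 and 0.588 against 0.338 and 0.301 FPKM) had lower values, and the part of these differences in the results was not tested. Of these 7, 3 were under 1 FPKM in every library, among them KRT19 (at most 0.0224 FPKM) and KRT7 (at most 0.0469 FPKM). The 8 fibroblast markers summed to 2.20 to 2.36 FPKM in the controls and 3.17 to 3.28 with ETS1, most of it COL1A1, while COL1A2 stayed at or below 0.00157 FPKM. The pan-leukocyte gene PTPRC was at or below 0.0117 FPKM in every library. The 4 endothelial markers listed summed to at most 0.290 FPKM.

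EGR1, ATF3, JUN and JUNB were higher in cells with ETS1, and FOS, FOSL2 and MAFF did not pass the test. FOSB had lower values with ETS1 but was under the filter of that test; it missed the threshold with the filter removed (limma adjusted p = 0.0501) and was called lower by voom on recovered reads, a fit added after the data were seen, and in the authors' deposited table. FOSL1 was called higher and JUND lower, but the call of FOSL1 was lost under several alternatives and the direction of JUND turned under quantile normalization and under removal of a length and GC trend. Both ETS1 libraries lay above both controls for 6 of the 10 genes and below both for 2, while the groups overlapped for the other 2. Among all 16652 genes of the authors' comparison table, 42% lay above and 37.3% below in this way. The test was limma on log2(FPKM + 1) for genes with a mean of at least 1 FPKM, adjusted over the 14306 genes tested (Benjamini-Hochberg, threshold 0.05). It covered 9 of the 10 genes and called 5 higher and 1 lower, against a background of 30.7% higher and 28.4% lower over all genes tested. FOSL1 reached the filter only through its ETS1 libraries and FOSB missed it only through its ETS1 libraries, so the filter itself bears on that count. With no filter, limma tested all 10 and called 4 higher (background 10.3%) and 0 lower (background 9.24%), and at an unadjusted p under 0.05 it gave 5 higher (background 18.9%) and 2 lower (background 14.9%). On recovered reads, limma's voom over the comparison table's genes called 5 higher (background 31.4%) and 2 lower (background 27.2%). With no filter, the median change of the 10 genes was 0.17 on the log2(FPKM + 1) scale, against 0.010 over all genes in that fit.

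**Figure D1:**
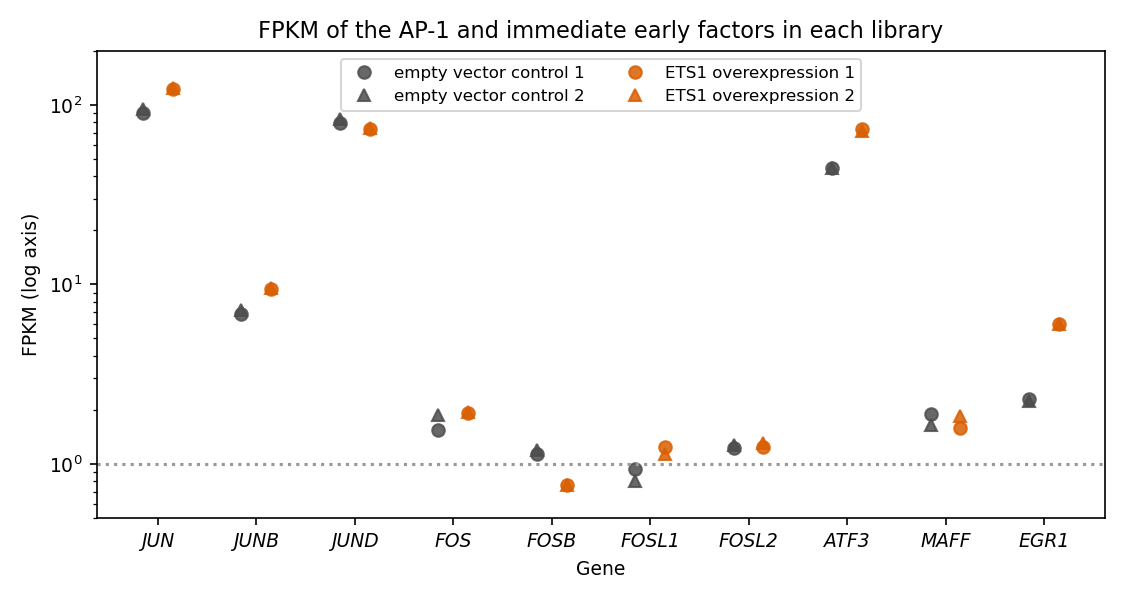
FPKM on a log axis for each of the 10 genes in the 4 libraries, with controls in grey, ETS1 libraries in orange, replicate 1 as circles and replicate 2 as triangles; the dotted line is the filter level of 1 FPKM. EGR1, ATF3, JUN and JUNB lie higher in both ETS1 libraries, FOSB lies lower, and the points of FOSL2 and MAFF overlap between groups.

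The JUN genes code for the AP-1 subunits that every such dimer needs. JUN, the founding member and a strong activator, had 90.0 and 94.6 FPKM in the controls and 122 and 124 FPKM with ETS1. Both ETS1 values lay above both controls, and the rise was larger than the spread within either group. The FPKM ratio was 1.33, and limma gave a log2 change of 0.41 (standard error 0.034, adjusted p = 0.00108). JUNB, which activates less strongly than JUN on many promoters, had 6.79 and 7.15 FPKM in the controls and 9.42 and 9.49 FPKM with ETS1. Its groups did not overlap either, with a ratio of 1.36 and a log2 change of 0.39 (standard error 0.038, limma adjusted p = 0.00146). JUNB exons overlap those of HOOK2 on the other strand over 259 bases in GENCODE 29, and whether counting used strand is not given in the sources used here.

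JUND, a JUN gene known for steady expression in resting cells, had 79.1 and 82.8 FPKM in the controls and 73.6 and 74.6 FPKM with ETS1. Both ETS1 values were below both controls, by a small margin. It fell by 0.13 on the log2 scale in the fit as planned (standard error 0.033, limma adjusted p = 0.0255), but its change was 0.0037 under quantile normalization and 0.034 with a trend on gene length and GC content removed, and neither passed. With a trend on length alone removed it was -0.028 (limma adjusted p = 0.493), and the call was also lost with no filter (0.0763) and with no intensity trend (0.0525). Leaving out ETS1 replicate 1, ETS1 replicate 2 or control replicate 2 also lost the call (limma adjusted p of 0.121, 0.0891 and 0.0678). JUND has 1 exon of 1863 bases with a GC content of 69.7%, against 56.7% for JUN and 64.9% for JUNB, which also have 1 exon each.

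Within the JUN family, JUN took a larger share and JUND a smaller one with ETS1. A share within 1 library does not depend on how libraries are scaled to each other. JUN made up 51.2% and 51.3% of the family's summed FPKM in the controls and 59.5% and 59.6% with ETS1. JUND made up 45.0% and 44.9% in the controls and 35.9% in both ETS1 libraries. JUNB was a small part throughout, at 3.86% and 3.87% in the controls and 4.60% and 4.57% with ETS1. Replicates of a group agreed to within 0.1 percentage points for each gene, so the shift of 8.28 points for JUN was far beyond their spread. The exact two-sided permutation test gave p = 0.333, the smallest that the 6 arrangements of 2 against 2 allow (0.389 adjusted over 7 shares). The ratio of JUN to JUND went from 1.14 ± 0.00268 to 1.66 ± 0.00387 (SD, n = 2 each), while that of JUN to JUNB was 13.3 ± 0.00942 and 13.0 ± 0.0842 (SD, n = 2 each). With the length and GC trend removed, JUN changed by 0.50 and JUND by 0.034 on the log2 scale. The family's summed FPKM was 176 and 185 in the controls and 205 and 208 with ETS1.

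**Figure D2:**
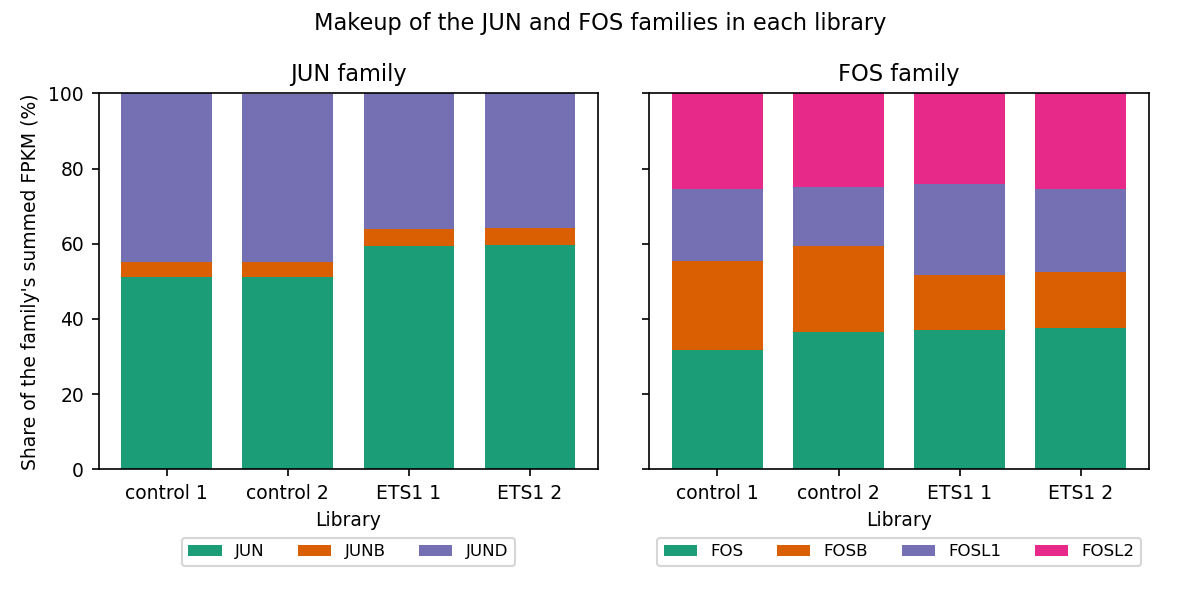
Share of each gene in the summed FPKM (percent, stacked bars) of the JUN family (left) and the FOS family (right) in each of the 4 libraries. JUN takes 59.5% and 59.6% with ETS1 against 51.2% and 51.3% in the controls, and FOSB takes 14.8% in both ETS1 libraries against 23.5% and 23.1%; JUND's own FPKM was lower with ETS1 except under quantile normalization and removal of a length and GC trend, where its change turned positive.

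The FOS genes, whose proteins act only as partners, were all low, together 4.82 and 5.14 FPKM in the controls and 5.16 and 5.14 FPKM with ETS1. The JUN family's sum was 36.5 and 35.9 times that of the FOS family in the controls and 39.7 and 40.4 times with ETS1. FOS, the classic serum-induced gene, had 1.53 and 1.87 FPKM in the controls (201 and 268 reads) and 1.91 and 1.93 FPKM with ETS1 (355 reads in each). The ETS1 values lay just above the second control, and the controls differed from each other by 1.22 times. FOS did not pass (log2 change 0.12, standard error 0.077, limma adjusted p = 0.251). The change was 0.21 without control replicate 2 and 0.025 without control replicate 1.

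FOSB, known for a truncated splice form that the gene-level values do not separate, had the lowest ratio of ETS1 to control of the 10. It had 1.13 and 1.19 FPKM in the controls (255 and 292 reads) and 0.765 and 0.762 FPKM with ETS1 (244 and 240 reads from the deeper libraries). The groups did not overlap, and the controls were 1.52 times as high. Its mean of 0.962 FPKM was under the filter. With no filter its log2(FPKM + 1) change was -0.29, with a limma adjusted p of 0.0501, just missing the threshold. Voom on recovered reads gave a log2 change of -0.61 (standard error 0.10, adjusted p = 0.000392), and the authors' deposited table gives -0.56 with an adjusted p of 0.000812. FOSB's share of the FOS family's FPKM was 23.5% and 23.1% in the controls and 14.8% in both ETS1 libraries.

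FOSL1, whose protein FRA1 is often raised in mesenchymal-like carcinoma cells, had 0.931 and 0.804 FPKM in the controls (71 and 67 reads) and 1.25 and 1.13 FPKM with ETS1 (135 and 121 reads). The groups did not overlap, with a ratio of 1.37 on few reads. Its log2 change was 0.23 (standard error 0.074) with a limma adjusted p of 0.0471, and the call was lost under 10 of 15 alternatives. These include each library left out in turn (0.0572 to 0.196), no filter (0.129) and the authors' deposited table (0.204). Its share of the family went from 19.3% and 15.6% to 24.2% and 22.0%. FOSL2, which codes for FRA2, had 1.22 and 1.28 FPKM in the controls and 1.24 and 1.31 FPKM with ETS1. Its values interleaved, and its change was 0.018 (standard error 0.061, limma adjusted p = 0.818).

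ATF3, a stress-induced bZIP factor that pairs with JUN proteins and often represses, had 44.3 and 44.6 FPKM in the controls and 73.4 and 71.1 FPKM with ETS1. The controls differed by less than 1.01 times and the groups were far apart. The ratio was 1.63, with a log2 change of 0.69 (standard error 0.029, limma adjusted p = 0.000439), and the change ran from 0.67 to 0.81 over 16 alternatives, all of which called it. In the ETS1 libraries ATF3 stood at percentile 96.0 of the tested genes by level, and JUND at percentile 96.2. MAFF, a small MAF protein without an activation domain, had 1.90 and 1.64 FPKM in the controls and 1.58 and 1.84 FPKM with ETS1. Its groups overlapped almost wholly, and its change was -0.032 (standard error 0.081, limma adjusted p = 0.759). The authors' gene model for MAFF was shorter than that of GENCODE 29: the length that their values imply, 2980 bases, was 0.531 of the union of its exons, so its FPKM depends on the model.

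EGR1 showed the largest rise of the set. Its zinc finger protein binds GC-rich sites, and the gene is induced with FOS by growth factors. It had 2.28 and 2.23 FPKM in the controls (290 and 310 reads) and 6.02 and 6.05 FPKM with ETS1 (1086 and 1076 reads). Replicates differed by at most 1.02 times, and the groups were separated by a ratio of 2.67. The log2(FPKM + 1) change was 1.11 (standard error 0.039, limma adjusted p = 0.000435), rank 57 among the 14306 tested genes by size of rise on that scale, which understates changes of low genes. On recovered reads, without the pseudocount of 1 FPKM, voom gave 1.42 (standard error 0.078, adjusted p = 9.93e-08). All 15 alternatives called it. EGR1 and FOS, often induced together, did not keep their ratio: EGR1 was 1.49 and 1.19 times FOS in the controls and 3.16 and 3.13 times with ETS1.

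**Figure D3:**
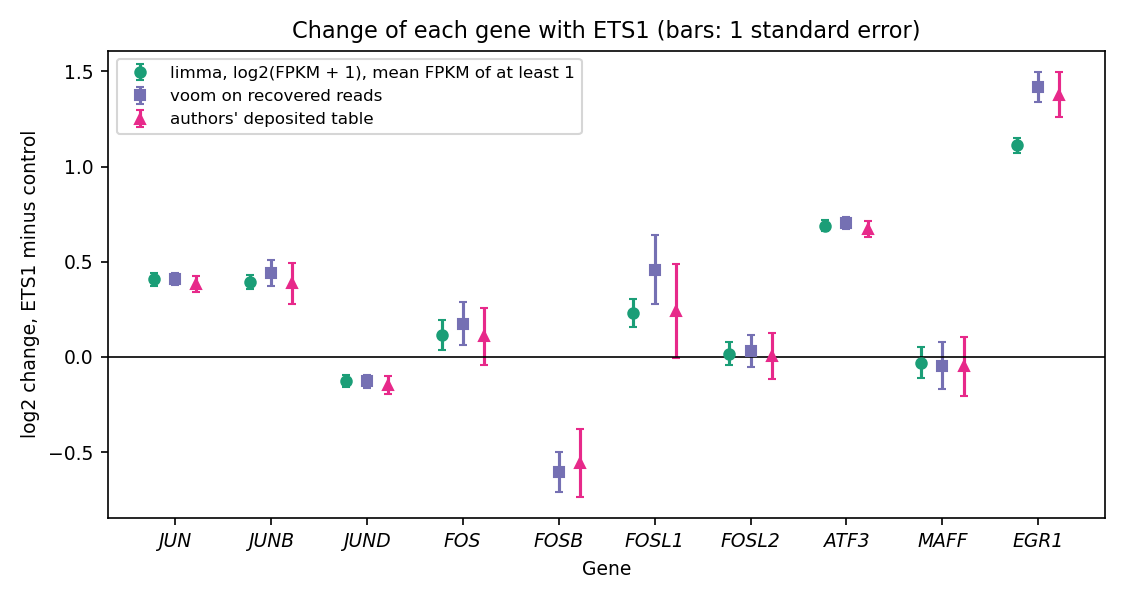
Change of each of the 10 genes on a log2 scale, ETS1 minus control, with bars of 1 standard error, from limma on log2(FPKM + 1) (circles, without FOSB, which was under the filter), voom on recovered reads (squares) and the authors' deposited table (triangles). EGR1 lies highest in each, ATF3, JUN and JUNB lie above 0 and FOSB below it; JUND lies just below 0 here but turned positive under quantile normalization and removal of a length and GC trend.

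The authors' deposited table calls 4 of the 10 genes higher and 2 lower at an adjusted p under 0.05, against 25.3% and 25.9% of the 15683 genes that have one. In the authors' deposited table the log2 fold changes are 1.38 for EGR1, 0.67 for ATF3, 0.39 for JUNB and 0.38 for JUN. In the authors' deposited table FOSB (-0.56) and JUND (-0.15) are lower, and the adjusted p is 0.493 for FOS, 0.968 for FOSL2 and 0.776 for MAFF. These fits use the same 4 libraries and are not independent of each other.

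By level per length, JUN was highest in the controls (mean 92.3 FPKM), followed by JUND (81.0), ATF3 (44.4), JUNB (6.97), EGR1 (2.26), MAFF (1.77), FOS (1.70), FOSL2 (1.25), FOSB (1.16) and FOSL1 (0.867). Only MAFF and FOS, neighbours in that order, had library ranges that overlapped. With ETS1 the first 5 places were the same, but ATF3 (72.3 FPKM) came close to JUND (74.1 FPKM), and the ranges of FOSL2 and FOSL1 overlapped. EGR1 moved from percentile 21.5 to percentile 47.9 of the tested genes, and FOSB became the lowest of the 10.

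Because JUN, JUNB, ATF3 and EGR1 were higher together, their promoter windows were read from RefSeq (build GRCh38.p14), from 250 bases before to 50 after each start. Windows were found for 9 of the 10 genes, 11 windows in all. Within these windows a CArG box was found for EGR1 alone, and 1.29% of all 35116 windows hold one. Bases further upstream were not read for FOS or any other of the genes, and FOSL1 had no window, so boxes there would be missed. The 250 bases before the EGR1 start, chr5:138465229-138465478 on the plus strand, are shown because they hold 2 such boxes (capitals), at positions -105 to -96 and -83 to -74 before the start. Matches to the ETS core GGAA on the other strand lie between the boxes at -93 to -90 and at the edge of the second box at -86 to -83, sharing its first base. This core is held by 95.5% of windows on one strand or the other.
EGR1: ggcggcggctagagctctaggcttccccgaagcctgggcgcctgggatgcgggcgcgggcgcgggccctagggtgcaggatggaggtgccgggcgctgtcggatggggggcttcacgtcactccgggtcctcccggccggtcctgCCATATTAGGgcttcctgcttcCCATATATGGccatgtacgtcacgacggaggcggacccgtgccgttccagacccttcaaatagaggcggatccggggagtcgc

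JUN and ATF3 share the site TGACATCA, an AP-1-like element known from the JUN promoter, which 2.61% of windows hold. The 30 bases around it (site in capitals) lie at chr1:58784096-58784125 on the minus strand for JUN and at chr1:212565273-212565302 on the plus strand for ATF3. In GENCODE 29 the JUN gene starts further upstream, at 58784327, so the JUN stretch lies within its exon there. The site starts 67 bases before the RefSeq start of JUN and 123 bases before the first of the 2 RefSeq starts of ATF3.
JUN: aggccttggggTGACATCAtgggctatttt
ATF3: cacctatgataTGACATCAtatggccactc

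The cyclic AMP response element TGACGTCA, found in 1.85% of windows, was in those of JUND and MAFF, which did not rise. The JUND window, chr19:18281623-18281872 on the minus strand, is shown as the contrast within the JUN family, with the element in capitals at positions -200 to -193.
JUND: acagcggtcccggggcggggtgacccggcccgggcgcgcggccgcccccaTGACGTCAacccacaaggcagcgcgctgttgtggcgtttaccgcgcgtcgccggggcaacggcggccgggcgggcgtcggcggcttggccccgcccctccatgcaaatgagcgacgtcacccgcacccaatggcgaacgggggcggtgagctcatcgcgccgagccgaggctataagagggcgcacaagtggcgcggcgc

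The AP-1 site TGANTCA, in 7.71% of windows, was in that of FOSL2, 5 to 11 bases after its start. The ETS site CGGAAG, in 19.5% of windows, was in those of JUNB (positions -53 to -48) and of the second ATF3 start. The motifs were chosen after these windows had been read and were searched on both strands, so each match only describes the letters of a window.

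The other genes of the pathway were read from fixed lists and set against the same background of 30.7% higher and 28.4% lower. Of 30 other immediate early genes, 24 were tested, 14 were called higher and 2 lower, with a median log2 change of 0.27. KLF10, a TGF-beta-induced zinc finger factor, went from 6.54 and 6.50 to 16.4 and 17.7 FPKM. DUSP1, a phosphatase that switches off MAP kinases, went from 11.1 and 10.7 to 20.4 and 21.1 FPKM. TRIB1, a pseudokinase scaffold, fell from 16.4 and 16.6 to 7.52 and 7.62 FPKM. The serum-induced gene IER2 (limma adjusted p = 0.145) and the nuclear receptor gene NR4A1 (adjusted p = 0.634) did not pass, and EGR2, a relative of EGR1, was under the filter at 0.254 to 0.396 FPKM. The list thus held genes called in each direction, as does the background. In the set of 10 the only lower call of that test was JUND, which was lost or reversed under several alternatives.

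SRF and its partners at CArG boxes also moved in different directions, with 3 of 6 tested genes higher and 2 lower (median 0.047). The number higher was 1 with the filter at 5 FPKM (background 31.2%) and 2 with no filter (background 10.3%). SRF was 25.1 and 25.3 FPKM in the controls and 20.6 and 20.3 FPKM with ETS1, a fall of its log2 level (-0.29, limma adjusted p = 0.00141). Of the ETS-family ternary complex factors, ELK4 rose by 0.49 and ELK3 by 0.16 on the log2 scale, while ELK1 changed by -0.16 (limma adjusted p = 0.0118). ELK3 (limma adjusted p = 0.0253) lost its call with no filter (0.0645). The SRF coactivator gene MKL2 had 0.726 and 0.756 FPKM in the controls and 1.31 and 1.30 FPKM with ETS1 (log2 change 0.41), so it reached the filter only through the libraries where it was high.

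Of 20 kinases of the ERK, JNK, p38 and ERK5 pathways, 19 were tested, with 5 higher and 4 lower (median 0.074). MAPK7, which codes for ERK5, rose most, from 3.71 and 3.94 to 7.46 and 7.29 FPKM. The JNK branch, which phosphorylates JUN, was mixed: MAP2K4 (log2 change 0.39), MAP3K1 (0.38) and MAPK8 (0.24) were called higher, though MAP3K1 lost its call with no filter (limma adjusted p = 0.0666), while MAP2K7, the other direct JNK kinase, was called lower (-0.14, limma adjusted p = 0.014). MAPK9 was not called (0.015, limma adjusted p = 0.691), and MAPK10 was under the filter at 0.297 to 0.392 FPKM.

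Of 27 other bZIP genes, 24 were tested, with 12 higher and 5 lower (median 0.13). The number lower was 3 with no filter (background 9.24%) and 2 with the filter at 5 FPKM (background 36.5%). MAFA, 1 of the 5, reached the filter only through the controls, where it was high. BACH1, a heme-sensing repressor, went from 3.61 and 3.63 to 6.45 and 7.01 FPKM. MAF, a large MAF factor, went from 6.16 and 6.23 to 10.0 and 10.7 FPKM. BATF3, which pairs with JUN proteins and lacks an activation domain, fell from 5.65 and 5.93 to 3.49 and 3.41 FPKM.

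Known AP-1 targets were mostly low in these cells: 12 of 26 reached the filter, with 6 higher and 2 lower (median 0.12). IL8, a neutrophil chemokine counted among the 6, went from 0.370 and 0.338 to 3.06 and 3.28 FPKM and reached the filter only through its ETS1 libraries. HMOX1, a heme-degrading enzyme, changed by 0.40 and CCND1, which codes for cyclin D1, by -0.78 on the log2 scale, and both were called. PLAUR, the urokinase receptor, did not pass (0.099, limma adjusted p = 0.162). PLAU, a protease gene with an ETS and AP-1 enhancer, was under the filter at 0.874 and 0.730 FPKM in the controls and 1.30 and 1.01 FPKM with ETS1. MMP1, a collagenase gene, was at most at 0.0266 FPKM in any library.

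**Figure D4:**
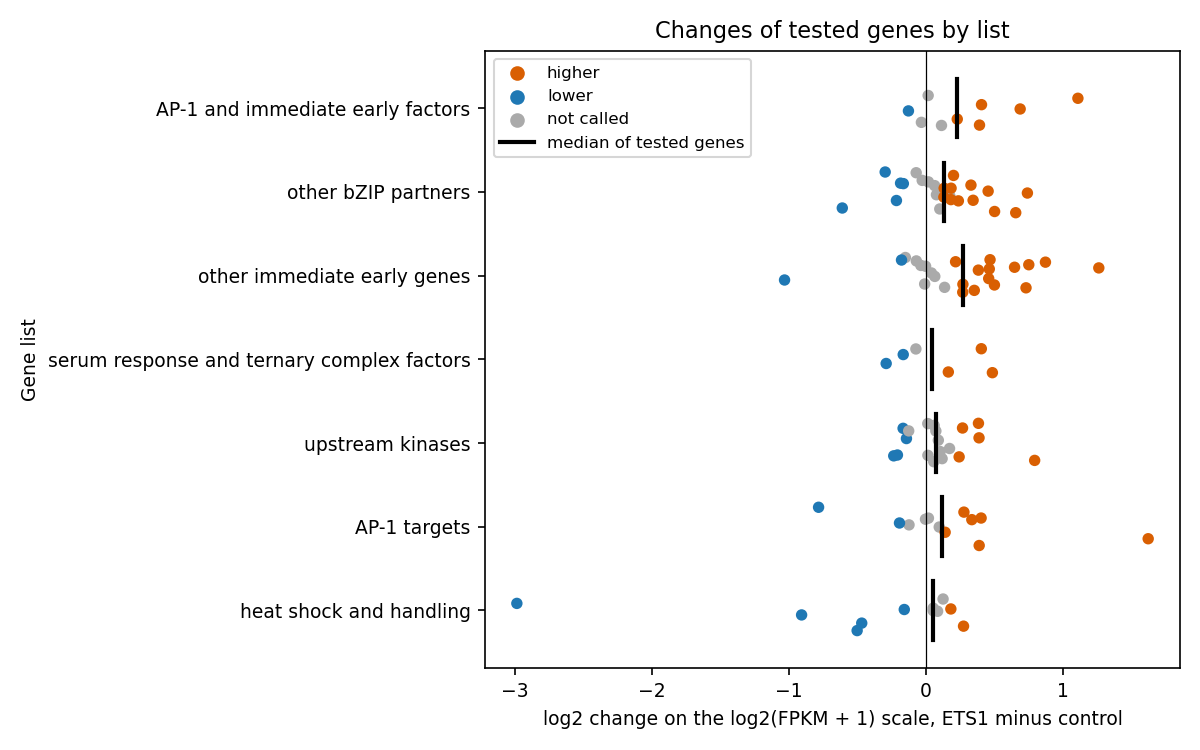
Change of each tested gene on the log2(FPKM + 1) scale, ETS1 minus control, by list, coloured by its limma call, with the list's median as a black bar. Each list holds genes called in each direction, where the only lower call in the top row is JUND, whose change turned positive under quantile normalization and removal of a length and GC trend; the bar of the top row is the value of FOSL1, which reached the filter only through its ETS1 libraries, and FOSB is not drawn because it was under the filter. The median of the other immediate early genes is 0.27, against 0.016 over all genes tested.

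Immediate early genes respond to handling and heat, so heat shock genes were read beside them. Of 11, 2 were called higher and 5 lower (4 higher and 5 lower under voom on recovered reads, where the background is 31.4% and 27.2%), and the list's summed level was 767 and 769 FPKM in the controls and 698 and 693 FPKM with ETS1. HSPA1A was lowest against its controls (20.1 and 20.6 to 1.64 and 1.75 FPKM), though it shares sequence with its neighbour HSPA1B, so its value is uncertain. HSPE1 changed by -0.91 and HSPD1 by -0.50 on the log2 scale. Their part in the changes of the 10 genes was not tested.

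The genes most like EGR1 over the 4 libraries, by Euclidean distance between centred log2(FPKM + 1) profiles, were MT-ND4L (0.0286), MT-RNR2 (0.0487) and CXCL2 (0.0559). For JUND, the tested gene of the set with the lowest change, they were RRP36 (0.00381), ATG9A (0.00886) and INO80E (0.0104), whose changes were -0.13 each. Each distance is over only 4 libraries in 2 groups.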

How the data were processed

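RNA of 2 ETS1 and 2 empty vector libraries of TE5 cells was analysed. The authors deposited FPKM per gene and library. The authors used HISAT2, HTSeq and DESeq2 on the build GRCh38, per the submitters' processing notes, while roles, versions, annotation and strand are not given in the sources used here. The other deposited table is the authors' comparison, with, per the file headers, a mean normalized count (a signal averaged over libraries), a log2 fold change with its standard error, and a p-value with its adjusted p-value. Raw counts were not analysed here.

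The members and gene lists were chosen with earlier results of these data known. Genes named are the 10 members, ETS1, marker genes, at most 3 called genes of largest absolute change per list, and 12 genes fixed by name; other names, among them MAP2K7, MAPK9, MAPK10 and MAFA, were chosen after their values were seen. Values of some of these genes are not reported here. limma 3.58.1 (R 4.3.3) was fitted to log2(FPKM + 1), which understates changes of low genes, with a group term, an intensity trend on the prior variance and 2 residual degrees of freedom per gene. Reads were recovered from FPKM and the mean normalized count: between 99.3% (genes of low count) and 99.8% (high count) of values fell within 0.05 of a whole number. Reads give counting error only. Alternatives were another pseudocount (0.1), other filters and scalings, the replicate number as a block, no trend, voom, the authors' values, length and GC trends (12045 of the tested genes had both) and leaving out each library; voom over all genes of the comparison table was added after seeing the data. Positions and exons are from GENCODE 29 on GRCh38, promoter windows from RefSeq.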

Additional observations from a re-analysis of the deposited data

How the results depend on the processing

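EGR1, ATF3, JUN and JUNB kept their direction and their call under every alternative that tested them (15 fits for EGR1, 16 for each of the others), and FOS failed to pass in each of its 15. The number of the 10 genes called higher was 3 with the filter set to a mean of 5 FPKM, which tests fewer of them, and 4 in each fit without 1 library. The number called lower was 0 with no filter, with no intensity trend and under quantile normalization. It was also 0 with the length trend removed and with the length and GC trend removed. Over all genes those fits called 3238 of 35055, 3930 of 14306, 3898 of 14306, 4050 of 14306 and 3298 of 12045 lower, in that order. The number of the 10 genes called lower was 2 in the authors' deposited table (background 25.9%). It was also 2 under voom over all genes of the comparison table (background 27.2%). The cause was not tested. JUND reversed to 0.0037 under quantile normalization and 0.034 with the length and GC trend removed. FOSL2 reversed to -0.073 with the length trend removed, -0.029 under quantile normalization, -0.0054 without ETS1 replicate 2 and -0.0015 without control replicate 1, and ran up to 0.041 without 1 library. MAFF reversed to 0.082 with the length and GC trend removed, 0.013 with the length trend removed, 0.039 without ETS1 replicate 1 and 0.036 without control replicate 1, and ran down to -0.10 without 1 library. Over all genes, 2562 were called higher with the filter at 5 FPKM, and without 1 library 2845 (without ETS1 replicate 2) to 3962 were higher and 2945 to 3720 lower.

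Shares of recovered reads in place of FPKM, which weigh genes by length, moved the difference to -9.22 points for FOSB, 2.99 for FOSL1, 7.21 for JUN, 0.360 for JUNB and -7.57 for JUND, and turned that of FOSL2 from -0.29 to 2.16. Without 1 library the FOSL2 difference ran from -1.05 to 0.460, that of FOS from 0.910 to 5.46 and that of FOSL1 from 3.77 to 7.46. Over the 6 lists of other genes, 42 were called higher as reported (background 30.7%). This number ran from 34 with the filter at 5 FPKM (background 31.2%) to 52 under voom over all genes of the comparison table (background 31.4%). Lower calls ran from 16 with the filter at 5 FPKM (background 36.5%) to 20, the number as reported (background 28.4%). How many listed genes are tested changes with the filter. The number of other immediate early genes called lower went from 2 to 1 with no filter (background 9.24%) and with the filter at 5 FPKM (background 36.5%). It was also 1 with the replicate block, where 3571 of 14306 genes were called lower. Fits that leave out a library keep 1 sample in a group, which is assumed to vary like the others.

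The replicate numbers are shared between groups, but deviations of same-numbered libraries had a correlation of -0.046 over genes. That value shows no strong shared deviation but cannot tell whether same-numbered libraries were prepared together, which is not given in the sources used here. With the replicate number as a block, 4 of the 10 genes were higher and 1 lower, 3712 of all genes were higher and 3571 lower, and FOSL1 lost its call (adjusted p = 0.0669). FOSL1 and FOSB rest on 67 to 292 reads per library, which limits their precision.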

Other observations

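The genes named here were chosen after their values were seen. EGR3 and EGR4 were at most at 0.0952 FPKM in any library. Of the EGR1 corepressor genes, NAB1 went from 8.13 and 7.13 to 10.7 and 11.8 FPKM (log2 change 0.50, limma adjusted p = 0.00465), while NAB2 had 6.08 and 5.93 FPKM in the controls and 5.99 and 6.43 FPKM with ETS1 (limma adjusted p = 0.461). MAFK, another small MAF gene, was under the filter at 0.604 and 0.639 FPKM in the controls and 0.953 and 0.910 FPKM with ETS1, and MAFG changed by 0.18 on the log2 scale (limma adjusted p = 0.00814). CD44, a surface receptor and AP-1 target, was under the filter at 0.0320 and 0.0360 FPKM in the controls and 0.416 and 0.383 FPKM with ETS1, a ratio of 11.7 at low level.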
